A study of Mus musculus with 9 samples.

Results

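The genes described here were 4 eosinophil-associated ribonucleases (Ear1, Ear2, Ear6 and Ear10), the granule proteins Epx, Prg2 and Prg3, and the receptors Siglecf and Il5ra, which together made 9 of the 57238 entries of the table of reads per gene. They were taken by gene name, and the names were selected on values already known from these libraries, in particular the low values in the TDE-treated libraries. The levels of these 9 genes and their differences between groups are therefore given as a description and without a test. RNA sequencing was done on bone marrow-derived dendritic cells (BMDCs), that is, bone marrow cells of wildtype C57BL/6 mice kept for 6 days, per the labels, in medium with GM-CSF at 20 ng/ml. The cells were left untreated (CTR) or were given exosomes, small membrane vesicles released by cells, for 24 h. Exosomes came from NIH 3T3, a non-cancerous mouse fibroblast line (NE), or from tumor cells (TDE). The labels do not name the tumor line, and the study's methods give TC-1, a cervical carcinoma line, or MC38, a colon carcinoma line, for exosomes that are not specified further. Each of the 3 groups had 3 libraries, and the methods describe RNA from purified BMDCs without giving the purification. Neither the labels nor the methods say whether the libraries of a group came from separate mice or cultures, so that the p-values given for other genes measure only the spread between these libraries, which may be technical.

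Eosinophils store cationic proteins in their granules, and the mouse Ear genes encode the ribonucleases among them, a rodent branch of the RNase A family that has expanded by gene duplication. Epx encodes eosinophil peroxidase, Prg2 the major basic protein of the granule core and Prg3 its close relative, while Il5ra encodes the alpha chain of the receptor for interleukin 5, the main growth factor of eosinophils. Not all of these genes are limited to eosinophils: Siglecf and several Ear genes are also expressed by alveolar macrophages, and Prg2 by basophils. The interleukin 5 receptor shares its beta chain with the receptors for interleukin 3 and GM-CSF, and a GM-CSF culture of bone marrow holds several myeloid cell types beside dendritic cells.

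In the GENCODE annotation of GRCm38, Ear1 (ENSMUSG00000072601) lies at chr14:43818765-43875517 on the minus strand, Ear10 (ENSMUSG00000090166) at chr14:43922720-43923559 on the minus strand, Ear2 (ENSMUSG00000072596) at chr14:44102654-44103534 on the plus strand, and Ear6 (ENSMUSG00000062148) farther along at chr14:51853699-51854643 on the plus strand. Prg2 (ENSMUSG00000027073, chr2:84980461-84983632) and Prg3 (ENSMUSG00000027072, chr2:84988215-84993886) are neighbours on the plus strand. Epx (ENSMUSG00000052234) lies at chr11:87864000-87875536 on the minus strand, Siglecf (ENSMUSG00000039013) at chr7:43351341-43359531 on the plus strand and Il5ra (ENSMUSG00000005364) at chr6:106710357-106749037 on the minus strand. Exons of Ear1 overlap those of the pseudogene Ear-ps9 on the same strand, and no other of the 9 genes shares exonic bases with another gene. The table also held Ear14 and 10 Ear pseudogenes, so that it had 15 Ear entries in all.

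The Ear genes are close copies of each other, which bears on how reads can be assigned to them. The first 90 coding bases, from GENCODE transcripts, show this: capitals mark bases that differ from Ear2, of which there are 2 in Ear1, 5 in Ear10 and 10 in Ear6.
Ear2 coding bases 1-90: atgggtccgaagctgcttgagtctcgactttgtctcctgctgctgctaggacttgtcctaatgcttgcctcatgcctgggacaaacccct
Ear1 coding bases 1-90: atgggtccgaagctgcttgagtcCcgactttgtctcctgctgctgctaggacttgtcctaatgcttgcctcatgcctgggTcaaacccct
Ear10 coding bases 1-90: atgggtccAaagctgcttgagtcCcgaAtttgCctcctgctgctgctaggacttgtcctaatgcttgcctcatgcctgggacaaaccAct
Ear6 coding bases 1-90: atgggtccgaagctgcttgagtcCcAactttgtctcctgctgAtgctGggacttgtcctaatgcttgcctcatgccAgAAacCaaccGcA
Over the whole coding sequence, Ear2 was identical to Ear10 at 97.0% of aligned bases, to Ear1 at 95.1% and to Ear6 at 87.6%, and the longest run shared without a difference was 185 bases for Ear2 and Ear10. The likeness reached into the sequence before the RefSeq gene starts. The 200 bases upstream of the RefSeq gene start (GRCm38.p6) are shown for the 4 genes, written 5′ to 3′ on the strand of the gene, with bases that are substituted or inserted against Ear2 in capitals.
Ear2 upstream (chr14:44102454-44102653, plus strand): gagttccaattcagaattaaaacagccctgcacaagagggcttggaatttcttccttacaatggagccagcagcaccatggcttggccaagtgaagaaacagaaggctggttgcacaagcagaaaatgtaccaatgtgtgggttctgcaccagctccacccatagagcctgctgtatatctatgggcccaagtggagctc
Ear1 upstream (chr14:43819640-43819839, minus strand): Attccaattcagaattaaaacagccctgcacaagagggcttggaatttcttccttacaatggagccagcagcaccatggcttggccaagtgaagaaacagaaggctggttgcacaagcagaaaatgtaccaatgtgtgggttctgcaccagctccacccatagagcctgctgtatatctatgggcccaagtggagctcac
Ear10 upstream (chr14:43923597-43923796, minus strand): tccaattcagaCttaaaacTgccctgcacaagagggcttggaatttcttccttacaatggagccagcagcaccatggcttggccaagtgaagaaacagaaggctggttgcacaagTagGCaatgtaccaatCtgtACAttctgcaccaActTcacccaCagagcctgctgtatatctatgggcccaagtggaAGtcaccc
Ear6 upstream (chr14:51853568-51853767, plus strand): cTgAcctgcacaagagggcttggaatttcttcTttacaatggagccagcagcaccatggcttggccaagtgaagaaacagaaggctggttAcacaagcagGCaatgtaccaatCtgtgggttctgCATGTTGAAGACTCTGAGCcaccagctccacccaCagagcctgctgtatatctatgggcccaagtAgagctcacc
Ear1 had 1 substitution against Ear2 in 198 aligned columns, Ear10 had 14 and Ear6 had 9 beside 19 gap columns. The RefSeq and GENCODE starts differ: by the GENCODE positions, the Ear1 stretch lies inside Ear1 and the Ear6 stretch runs into Ear6. In the promoter window of RefSeq (250 bases before to 50 after the gene start), Ear2 was identical to Ear1 at 97.0%, to Ear10 at 89.5% and to Ear6 at 79.0% of aligned columns.

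Promoters of 8 of the 9 genes were found in the RefSeq table and were searched on both strands for 3 letter patterns. The C/EBP pattern TTGCNNAA was present in Ear1, Ear2 and Ear10, in each as TTGCACAA, starting 92, 90 and 94 bases before the gene start, and 10.8% of 32544 promoters of the same length hold it. For GATA factors the searched letters were AGATAA, then the same with G as the last letter (AGATAG), and both again with T as the first letter (written TGATAA, and with a final G as TGATAG). At least 1 of them was present in Prg3, Siglecf and Il5ra, and 29.6% of promoters hold at least 1. The PU.1 pattern GAGGAA was present in Siglecf and Il5ra, against 28.1% of promoters. A match describes these letters and is not evidence of binding.

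The 9 libraries held 17469782 to 21092943 reads, and 3 reads, taken as the floor of a single library, corresponded to 0.142 to 0.172 CPM (counts per 1000000 reads). Levels are given as CPM after TMM normalization, which scales each library by its bulk of genes. CTR replicate 1 stood apart: its highest correlation with any other library was 0.914, while the lowest among the other 8 libraries was 0.958. The distance went with gene length. Against the mean of CTR replicates 2 and 3, the 1647 tested genes of up to 1000 bases had a median log2 difference of 1.33 in CTR replicate 1, and the genes over 4000 bases had one of -0.73. The eosinophil genes differed as well, and not all as their length class did, with log2 differences of 2.11 for Prg3, 1.66 for Prg2, 0.53 for Ear2, 0.48 for Ear6, 0.45 for Ear1, 0.42 for Epx, -0.82 for Siglecf and -1.16 for Il5ra. Il5ra (1704 bases) lay below the lower quartile of its class (median 0.60, lower quartile -0.13), and Epx (2689 bases) lay above the median of its class (-0.15). The results that this library bears on most are given with and without it.

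**Figure D1:**
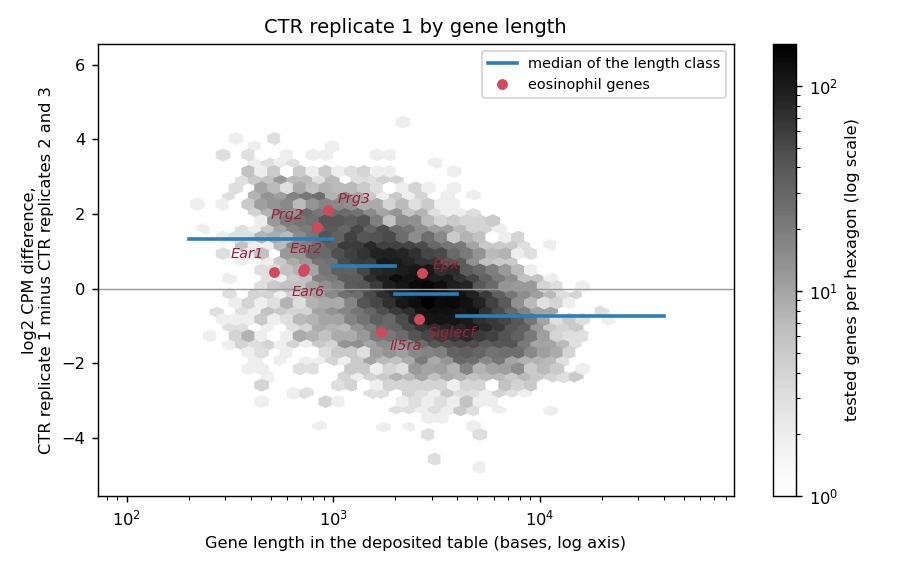
Log2 difference in CPM between CTR replicate 1 and the mean of CTR replicates 2 and 3 (y axis) against gene length in bases (x axis, log scale) for all tested genes, shaded by the number of genes per hexagon, with blue lines for the median of 4 length classes and red points for 8 eosinophil genes. The medians run from 1.33 in the shortest class to -0.73 in the longest, Prg2 and Prg3 lie above the median of their class, and Il5ra and Siglecf lie below 0.

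Ear2 was the most abundant of the Ear ribonucleases in every library, and the 3 detected Ear genes were lower in each TDE library than in any CTR or NE library. The genes were chosen on low TDE values, and nothing is read from this separation. Ear2 stood at 269, 206 and 166 CPM in CTR replicates 1 to 3, at 161, 179 and 189 CPM in the NE libraries, and at 14.7, 11.5 and 14.5 CPM in the TDE libraries. The mean was 214 ± 52.0 CPM in CTR, 176 ± 14.2 in NE and 13.6 ± 1.78 in TDE (SD, n = 3). CTR and NE overlapped, and the highest TDE library was far below both. The fitted log2 fold change of Ear2 was -3.98 (SE 0.22) for TDE against CTR, a level 15.7 times lower, and -3.70 (SE 0.22) for TDE against NE.

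Ear1 had 46.4, 36.8 and 31.0 CPM in CTR, 25.2, 33.7 and 22.2 CPM in NE and 5.10, 4.09 and 5.17 CPM in TDE. Its log2 fold change was -2.99 (SE 0.23) against CTR and -2.49 (SE 0.23) against NE. Ear6, the most divergent of the 4 ribonucleases, had 29.2, 23.4 and 18.3 CPM in CTR, 20.0, 19.5 and 14.7 CPM in NE and 3.55, 3.22 and 4.23 CPM in TDE. Its log2 fold change was -2.68 (SE 0.23) against CTR and -2.30 (SE 0.23) against NE. For both genes the NE libraries overlapped those of CTR, while no TDE library reached the lowest of them. Ear10 was not detectable at this depth, with 1.01 reads in CTR replicate 2 and 0 in the other libraries, and no fold is given for it. In bulk RNA, fewer cells that express these genes and less of their RNA per cell cannot be told apart.

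**Figure D2:**
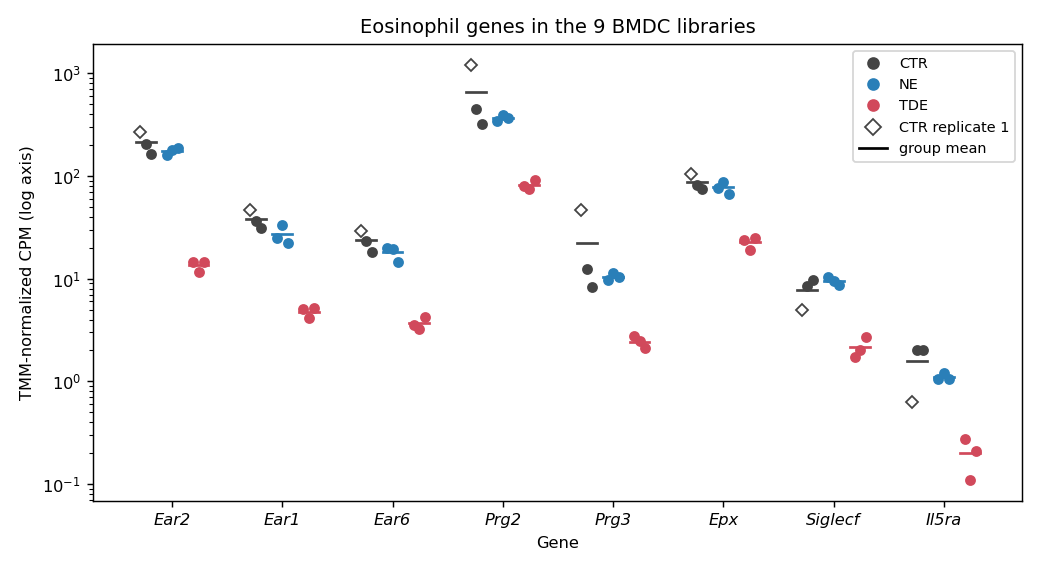
TMM-normalized CPM (log axis) of 8 eosinophil genes in each of the 9 libraries, with a point per library, a diamond for CTR replicate 1 and a bar for the mean of each group. For every gene the 3 TDE points lie below all CTR and NE points, and for Prg2 and Prg3 the diamond lies above the rest. The genes were chosen on low TDE values, and how many of all tested genes separate in this way was not counted.

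Reads on the Ear entries moved in composition as well as in amount. Ear2 took 77.0 to 78.0% of the reads on Ear entries in CTR, 77.1 to 83.6% in NE and 60.4 to 62.9% in TDE, so that the TDE libraries did not overlap the others. Ear2 had 5.33 to 5.79 times the reads of Ear1 in CTR, 5.32 to 8.49 times in NE and 2.81 to 2.88 times in TDE. Against Ear6, whose sequence is easier to tell from the others, the ratio was 8.83 to 9.22 in CTR, 8.07 to 12.9 in NE and 3.43 to 4.14 in TDE. The Ear2 level was thus lower in TDE by a larger factor than the Ear1 or Ear6 level.

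How far the counts of single Ear genes can be trusted depends on shared sequence. Of all windows of 50 bases in its transcript, Ear1 had 57.4% that also occur in a transcript of another gene, Ear2 had 41.5%, Ear10 39.9% and Ear6 1.07%. With windows of 150 bases the shares were 5.67% for Ear1, 6.32% for Ear2, 6.81% for Ear10 and 0% for Ear6. Epx, Prg2 and Prg3 shared no window of 50 bases with another gene, and Siglecf (0.235%) and Il5ra (1.05%) shared few. The deposited values carry a trace of the sharing: Ear1, Ear2 and Ear-ps9 had fractional values in all 6 CTR and NE libraries, and in 5 of these the fractional Ear entries added up to a whole number within 0.015. In the TDE libraries, where 6007 to 6280 other entries had fractional values, every Ear entry was whole. Summed over all Ear entries, which does not depend on the split between them, the log2 fold change was -3.64 (SE 0.21) for TDE against CTR, -3.33 (SE 0.21) for TDE against NE and -0.31 (SE 0.19) for NE against CTR. The levels of Ear1 and Ear2 as single genes remain uncertain to the extent that reads were split between them.

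**Figure D3:**
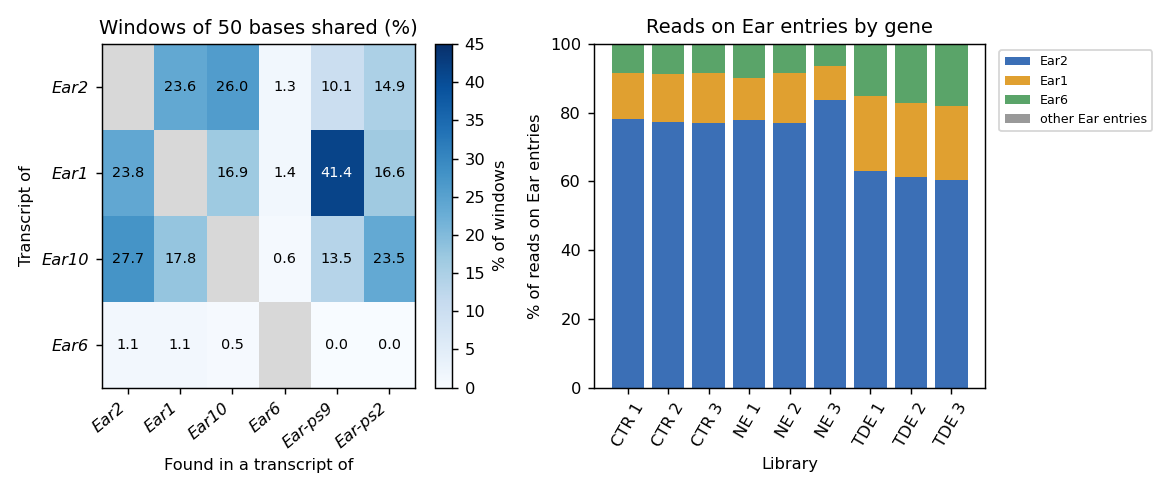
Left, the percentage of windows of 50 bases in the transcripts of an Ear gene (rows) that also occur in a transcript of another Ear entry (columns); right, the percentage of reads on all Ear entries that fell on each gene in the 9 libraries. Ear1, Ear2 and Ear10 share up to 41.4% of windows with a single entry and Ear6 at most 1.1%, and the share of Ear2 reads is 60.4 to 62.9% in TDE against at least 77.0% elsewhere.

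Of the granule proteins, Prg2 was the most abundant, and all 3 were lower in TDE than in every other library. As for the Ear genes, nothing is read from this separation. Prg2 stood at 1215, 446 and 322 CPM in CTR, at 341, 391 and 369 CPM in NE and at 79.2, 75 and 92.2 CPM in TDE. CTR replicate 1 was 2.72 times the next highest library, and without it the CTR and NE libraries lay between 322 and 446 CPM. The log2 fold change for TDE against CTR was -3.01 (SE 0.46) over all libraries and -2.23 without CTR replicate 1, that is, 8.05 and 4.71 times lower, and for TDE against NE it was -2.16 (SE 0.45).

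Prg3 had 46.6, 12.6 and 8.22 CPM in CTR, 9.61, 11.3 and 10.3 CPM in NE and 2.77, 2.46 and 2.09 CPM in TDE. Here too CTR replicate 1 set the size: the log2 fold change for TDE against CTR was -3.20 (SE 0.61) with it and -2.10 without it, 9.17 and 4.30 times lower. Against NE the value was -2.09 (SE 0.60). Epx, which encodes the peroxidase, had 105, 82.7 and 74.5 CPM in CTR, 77.3, 88.3 and 66.6 CPM in NE and 23.6, 19.2 and 24.9 CPM in TDE. Its log2 fold change was -1.95 (SE 0.19) against CTR, 3.88 times lower, and -1.78 (SE 0.19) against NE. Prg2 had 3.35 to 3.91 times the CPM of Epx in TDE and 4.32 to 5.53 times in CTR replicates 2 and 3 and NE, against 11.5 times in CTR replicate 1.

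The receptors were the least abundant of the detected genes. Siglecf, which encodes a sialic acid-binding lectin of the eosinophil surface, had 4.94, 8.49 and 9.69 CPM in CTR, 10.4, 9.54 and 8.75 CPM in NE and 1.72, 2.02 and 2.72 CPM in TDE, from 31 to 52 reads per TDE library. Its log2 fold change was -1.84 (SE 0.29) against CTR, 3.58 times lower, and -2.15 (SE 0.29) against NE. CTR replicate 1 was the lowest of the 6 CTR and NE libraries for this gene.

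Il5ra had 0.634, 2.03 and 2.02 CPM in CTR, 1.06, 1.19 and 1.04 CPM in NE and 0.277, 0.109 and 0.209 CPM in TDE. The TDE values rest on 5, 2 and 4 reads, close to the floor of 3 reads, and those of CTR replicates 2 and 3 on 45 and 40. The log2 fold change was -2.95 (SE 0.54) against CTR, -3.32 without CTR replicate 1, and -2.43 (SE 0.54) against NE. CTR replicates 2 and 3 lay above all NE libraries, and CTR replicate 1 lay below them.

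Per kilobase of gene length as the table gives it, Prg2 was the most abundant in CTR with 789 CPM per kb, followed by Ear2 (297), Ear1 (73.3), Ear6 (33.1), Epx (32.5), Prg3 (23.7), Siglecf (2.96), Il5ra (0.916) and Ear10 (0.0222). Ear6 and Epx overlapped over the CTR libraries, as did Epx and Prg3, and the other neighbours in this order did not. Prg3 overlapped Epx through CTR replicate 1. Without that library the levels were 458 for Prg2, 259 for Ear2, 65.3 for Ear1, 29.2 for both Epx and Ear6, 10.9 for Prg3, 3.49 for Siglecf and 1.19 for Il5ra, and only Epx and Ear6 overlapped. In NE the order was Prg2, Ear2, Ear1, Epx, Ear6, Prg3, Siglecf and Il5ra, from 438 to 0.645 CPM per kb, and again only Epx and Ear6 overlapped. The order in TDE was the same as in NE, from 98.0 for Prg2 through 18.9 for Ear2 and 9.23 for Ear1 to 0.116 for Il5ra, with an overlap of Ear1 and Epx alone. Ear2 was thus 4.05 times Ear1 per kb in CTR and 4.71 times in NE, but 2.05 times in TDE. The lengths in the table were shorter than the GENCODE transcripts used for the windows for Ear1 (519 against 713 bases), Ear6 (713 against 893) and Il5ra (1704 against 3575), and the levels per kb of these genes depend on that choice. The 9 genes together took 0.0677, 0.0865 and, in CTR replicate 1, 0.128% of all reads in CTR, 0.0682 to 0.0774% in NE and 0.0119 to 0.0146% in TDE.

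In the edgeR fit over all 15028 genes that passed the filter on low counts, 8 of the 9 genes were tested, and Ear10 was not. The filter asks for reads in as many libraries as a group holds, so that a gene high in 1 group alone can pass it. At an adjusted p under 0.05, all 8 tested genes were lower in TDE than in CTR, where 9.34% of tested genes were called lower and 7.57% higher. Against NE, 7 of the 8 were called lower, Prg3 being the exception, where 7.21% of tested genes were called lower and 6.73% higher. The genes were chosen on these comparisons, and nothing is read from the counts. Without CTR replicate 1, the 8 genes were called lower against CTR, where 18% of tested genes were lower and 16.4% higher. In that fit Prg3 was also called against NE, where 3289 of 15301 tested genes were lower and 2934 higher. The median log2 fold change of the 8 genes was -2.97 against CTR (-2.37 without CTR replicate 1) and -2.23 against NE, beside -0.05 and -0.02 over all tested genes.

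**Figure D4:**
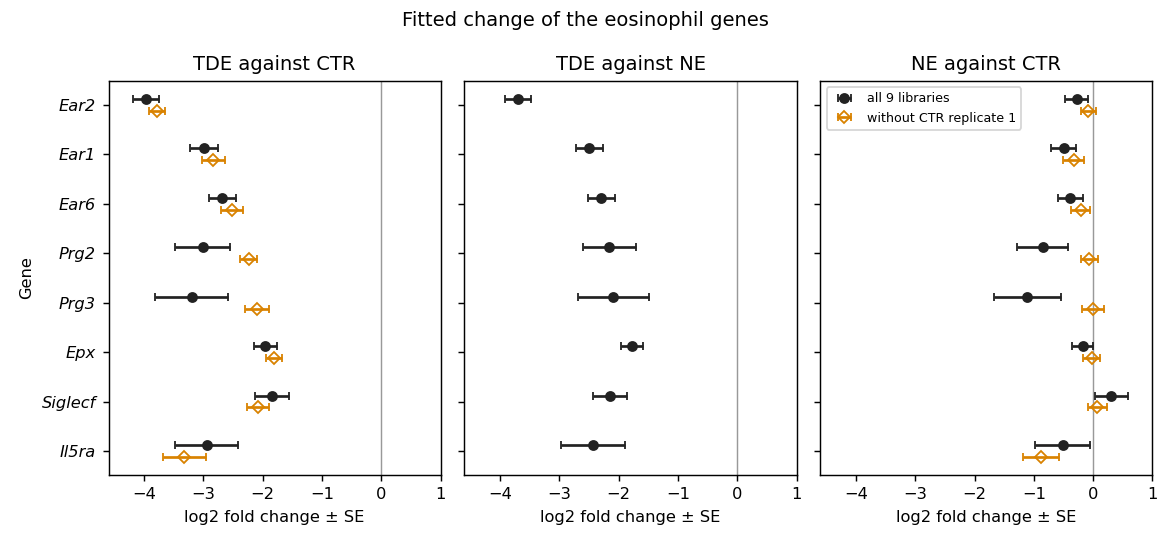
Fitted log2 fold change with its standard error for 8 eosinophil genes in 3 comparisons, from all 9 libraries (black) and, where CTR takes part, without CTR replicate 1 (orange). All values for TDE against CTR or NE lie below -1.5, from -1.78 for Epx to -3.98 for Ear2, and without CTR replicate 1 the NE values of all genes but Ear1, Ear6 and Il5ra lie within 0.1 of 0.

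The comparison of NE with CTR asks what exosomes of non-cancerous cells did to the same genes. No eosinophil gene was called, and of all tested genes 0% were called, with 487 genes at an unadjusted p under 0.05 and with 6 genes called by DESeq2 and 18 by limma voom. The log2 fold changes ran from -1.11 (SE 0.56) for Prg3 through -0.85 (SE 0.43) for Prg2, -0.51 for Il5ra, -0.49 for Ear1, -0.39 for Ear6, -0.28 for Ear2 and -0.18 for Epx to 0.31 (SE 0.27) for Siglecf. Without CTR replicate 1 the values for Prg3, Prg2, Ear2, Epx and Siglecf were -0.0046, -0.07, -0.08, -0.02 and 0.07, and Il5ra had the lowest at -0.88. For all 8 genes the ranges of the NE and CTR libraries overlapped. Since TDE is compared with both, and CTR and NE each serve more than 1 comparison, the comparisons share libraries and are given side by side only.

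Other RNases of the superfamily did not share 1 direction. Of 18 genes listed, 17 were in the table and 6 were tested, and in TDE against CTR 1 rose, 2 fell and 3 were not called (list median -0.56, all tested genes -0.05), where 7.57% of all tested genes rose and 9.34% fell. Without CTR replicate 1 the list median was 0.02, on the other side of 0, with 1 gene rising and 3 falling, where 16.4% of tested genes rose and 18% fell. The same shares stand beside the counts of each list below, and against NE 6.73% of all tested genes rose and 7.21% fell. All lists were chosen with earlier results of these data known, so that their counts are given as a description. Rnase6, an antimicrobial ribonuclease of phagocytes, fell from 46.0, 33.9 and 26.7 CPM in CTR to 13.3, 14.2 and 14.7 CPM in TDE (log2 fold change -1.34, SE 0.20, edgeR adjusted p = 0.00368). Rnase4 rose from 20.3, 35.1 and 28.3 CPM to 47.4, 45.2 and 45.9 CPM (0.72, SE 0.19, adjusted p = 0.034), and its exons overlap those of Ang on the same strand. Rnase12 fell by 2.68 on the log2 scale (adjusted p = 0.0219) from 40, 22 and 15 reads in CTR to 3, 3 and 6 in TDE, and by 2.0 without CTR replicate 1. Rnase4 and Rnase12 were not called in TDE against NE, with adjusted p = 0.0909 and 0.0842. In the fit without CTR replicate 1 both were called against NE, Rnase4 higher and Rnase12 lower.

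Rnase2a, which takes its name from the human gene of the eosinophil-derived neurotoxin, had 0.50 to 2.54 CPM in CTR, 0.53 to 0.87 in NE and 0.67 to 1.15 in TDE, with adjusted p = 0.63 for TDE against CTR. Rnase2b had 2 to 10 reads per library and was not tested, and Ear-ps9 had 13.18 reads in all. Ang, which encodes angiogenin, was at 2.66 to 6.59 CPM in CTR and 3.10 to 3.82 in TDE (adjusted p = 0.727). Rnh1, the intracellular inhibitor of RNase A family enzymes, had 502, 264 and 233 CPM in CTR and 198, 211 and 202.9 in TDE (log2 fold change -0.71, adjusted p = 0.108). Its value without CTR replicate 1 was -0.30, with adjusted p = 0.0354.

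Of the other granule and enzyme genes of eosinophils, 8 of 15 were in the table and 6 were tested, of which 2 fell in TDE against CTR and 4 were not called (median -0.54). In the fit without CTR replicate 1, 3 fell (median -0.42). Alox15, which encodes the lipoxygenase abundant in eosinophils and resident macrophages, fell from 9.0, 18.2 and 15.1 CPM in CTR to 1.94, 1.91 and 2.35 CPM in TDE (log2 fold change -2.77, SE 0.29, adjusted p = 0.000788), and NE had 17.4, 17.8 and 12.5 CPM. Galc, a lysosomal galactosylceramidase, fell by 0.66 on the log2 scale (adjusted p = 0.0112). Ltc4s, the leukotriene C4 synthase, had 85.4 CPM in CTR replicate 1, 16.3 and 13.6 in the other CTR libraries and 8.90 to 10.3 in TDE (adjusted p = 0.0684, and 0.0111 without CTR replicate 1). Of the peroxidases beside Epx, 1 of 4 was tested: Mpo, the neutrophil myeloperoxidase, fell from 160, 87.1 and 73.8 CPM to 25.8, 27.4 and 24.4 CPM (log2 fold change -2.05, adjusted p = 0.00234).

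Among surface receptors of eosinophils beside Siglecf and Il5ra, 12 of 14 were tested, and 2 rose and 5 fell in TDE against CTR (median -0.58). The same counts were found against NE, and 2 rose and 6 fell against CTR without CTR replicate 1 (median -0.44). Ccr3, the eotaxin receptor, had 1.39, 3.79 and 2.77 CPM in CTR, 3.24, 3.25 and 2.69 in NE and 0.28, 0.38 and 0.52 in TDE. It fell by 2.74 on the log2 scale (SE 0.42, adjusted p = 0.00437). Il1rl1, the interleukin 33 receptor, fell from 2.41 to 7.67 CPM in CTR to 0.89 to 1.42 CPM in TDE (log2 fold change -2.29, adjusted p = 0.00996), and Cd24a fell by 0.85 (adjusted p = 0.00432). The receptors that rose were Fpr2, a formyl peptide receptor (log2 fold change 2.09, adjusted p = 8.23e-05, exons shared with Fpr3), and Itgal, an integrin alpha chain of many leukocytes (1.55, adjusted p = 0.0114). Neither of these is particular to eosinophils, nor are Csf2ra and Csf2rb2, which fell and are described below.

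Csf2rb, the beta chain that the receptors for interleukin 5, interleukin 3 and GM-CSF share, had 790 to 956 CPM in CTR and 771 to 802 CPM in TDE (log2 fold change -0.14, adjusted p = 0.496). Csf2rb2, the second mouse beta chain, which serves interleukin 3 and is a close copy of Csf2rb, fell by 0.49 (adjusted p = 0.0396), and Csf2ra, the GM-CSF receptor alpha chain, fell by 0.68 (adjusted p = 0.0324). Il3ra, the interleukin 3 receptor alpha chain, had 185, 29.4 and 23.5 CPM in CTR and 21.6, 25.5 and 23.3 CPM in TDE (log2 fold change -1.76, adjusted p = 0.121), and the value was -0.18 without CTR replicate 1. In the list of interleukin 5, interleukin 3 and GM-CSF signalling, 18 of 21 genes were tested, and 6 rose and 2 fell (median 0.47), or 10 and 3 without CTR replicate 1 (median 0.34). Socs3 rose from 18.5, 22.8 and 21.5 CPM in CTR to 385, 379 and 371 CPM in TDE (log2 fold change 4.17, SE 0.15, adjusted p = 1.77e-05). Socs1 rose by 2.15 (adjusted p = 0.000476) and Cish by 1.76 (adjusted p = 0.000337), and all 3 encode inhibitors of cytokine signalling through JAK and STAT proteins. Lyn and Pim1, which encode kinases, and the transcription factor gene Stat5a also rose. Il5 itself had at most 0.05 CPM in any library, which is below the floor.

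Of 13 transcription factors of eosinophil development, all tested, 2 rose and 4 fell in TDE against CTR, and 3 rose and 3 fell against NE (median -0.19 against CTR). Without CTR replicate 1, 4 rose and 6 fell against CTR (median -0.18). Cebpe, which drives the late, granule-forming stage of eosinophils and neutrophils, had 85.9, 30.7 and 24.4 CPM in CTR, 23.1, 25.5 and 34.3 in NE and 6.87, 6.82 and 7.16 in TDE. Its log2 fold change was -2.75 (SE 0.46, adjusted p = 0.00607), and -2.0 without CTR replicate 1. Gata2 fell from 12.8, 15.6 and 10.8 CPM to 3.38, 3.82 and 2.82 CPM (-1.97, SE 0.21, adjusted p = 0.000913). Gata1, the factor that eosinophil development requires, fell from 2.98, 2.48 and 1.72 CPM to 0.44, 0.76 and 0.78 CPM (-1.84, SE 0.36, adjusted p = 0.0114), and it was not called against NE (-1.24, adjusted p = 0.057). In the fit without CTR replicate 1, Gata1 was called lower against NE. Cebpa fell by 0.93 (adjusted p = 0.00385). Id2 and Xbp1 rose by 0.81 and 0.61 (adjusted p = 0.00782 and 0.0115).

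**Figure D5:**
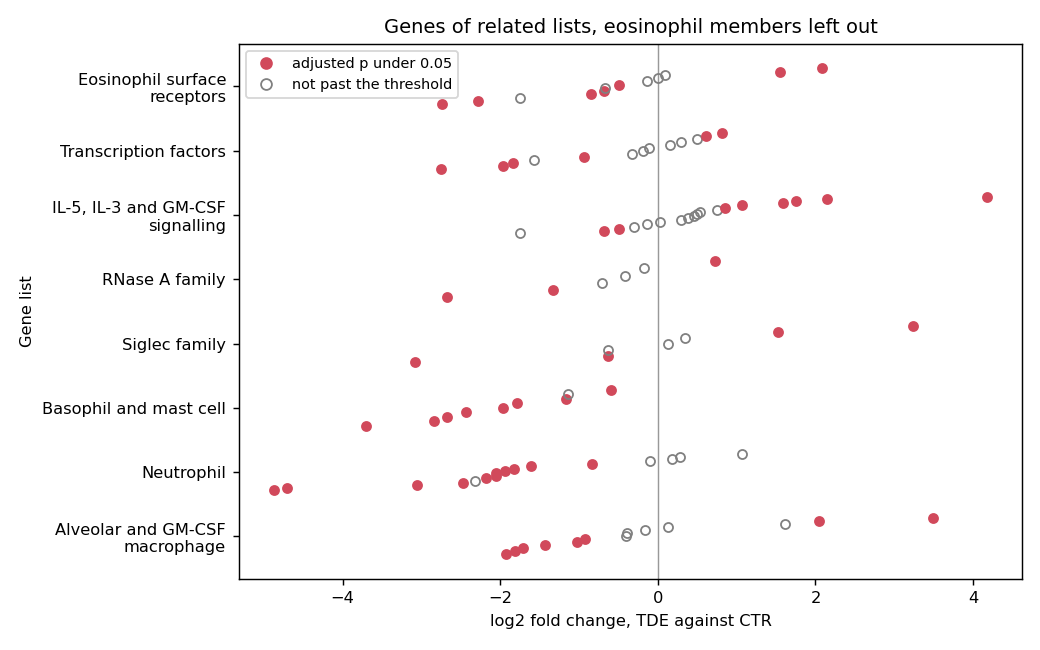
Log2 fold change for TDE against CTR (x axis) of the genes in 8 lists, with a row per list and a point per tested gene, filled where the edgeR adjusted p was under 0.05. The basophil and mast cell row lies below 0 throughout, the signalling row holds the highest point (Socs3, 4.17), and other rows hold points on both sides.

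Of 8 Siglec genes beside Siglecf, 7 were tested, and 2 rose and 2 fell in TDE against CTR (median 0.13, and -0.07 with the same counts without CTR replicate 1). Siglece, an inhibitory lectin of neutrophils and macrophages, rose from 28.8, 20.6 and 16.9 CPM to 211, 205 and 210 CPM (log2 fold change 3.24, adjusted p = 8.23e-05), and Siglec1, a macrophage adhesion receptor, rose by 1.52 (adjusted p = 0.0359) but was not called against NE (adjusted p = 0.181). In the fit without CTR replicate 1, Siglec1 was called higher against NE. Cd22 fell by 0.63 (adjusted p = 0.0395) and Siglech, a plasmacytoid dendritic cell marker with 0.90 to 1.46 CPM in CTR, fell by 3.08 (adjusted p = 0.00446). From so low a level, a fall of this size ends near the floor, and the size for Siglech is uncertain. Of 12 eosinophil-recruiting chemokines and type 2 cytokines, 2 were tested. Ccl24, which encodes eotaxin 2, had 5.77, 0.99 and 0.96 CPM in CTR, 1.80, 1.25 and 1.94 in NE and 0.06, 0.11 and 0.16 in TDE, where the values are at or under the floor. Its fitted log2 fold change was -4.48 (adjusted p = 0.012), and -3.11 without CTR replicate 1.

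Summed markers of basophils and mast cells, neutrophils, dendritic cells and lymphoid cells were lower in TDE than in every CTR and NE library. The part of these cell types in the result for the eosinophil genes was not tested. For both macrophage lists the sums in TDE overlapped those in NE. Of the 13 tested alveolar and GM-CSF macrophage markers, 3 rose and 5 fell in TDE against NE. Over all tested genes, 9.34% fell against CTR, 7.21% against NE and 18% against CTR without CTR replicate 1. Of 13 basophil and mast cell markers, 9 were tested, of which 8 fell against CTR and all 9 against NE (median -1.97 and -2.01). All 9 also fell against CTR when CTR replicate 1 was left out (median -1.94). Their summed level was 507 CPM in CTR replicate 1, 237 and 283 in the other CTR libraries, 254 to 331 in NE and 79.5 to 85.8 in TDE, and Mcpt4 and Tpsab1 were at 0 in all libraries. Mcpt8, a basophil protease, had 192, 46.9 and 35.2 CPM in CTR, 39.3, 45.9 and 62.1 in NE and 7.32, 7.32 and 6.43 in TDE (log2 fold change -3.70, adjusted p = 0.00664, and -2.56 without CTR replicate 1). Cpa3, the mast cell carboxypeptidase, fell from 20.6, 23.3 and 20.4 CPM to 2.72, 3.60 and 3.76 CPM (-2.67, SE 0.17, adjusted p = 8.72e-05), and Fcer1a, the IgE receptor alpha chain, fell by 2.84 (adjusted p = 0.00209). Gata2 belongs to this list as well as to the transcription factors, as Mpo belongs to the peroxidases and to the neutrophil markers.

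Of 16 neutrophil markers, all tested, 11 fell and none rose against CTR (median -1.99), and against NE 8 fell and 1 rose (Lcn2). Over all tested genes, 9.34% fell and 7.57% rose against CTR, and 7.21% fell and 6.73% rose against NE. With CTR replicate 1 left out, 13 fell and 2 rose against CTR (Csf3r and Lcn2, median -1.09), beside 18% and 16.4% of all tested genes. The 16 markers summed to 8593 to 31452 CPM in CTR, 9062 to 12576 in NE and 5905 to 6256 in TDE, with the highest CTR value in replicate 1 and the others at 8593 and 11123. Retnlg, Camp and Ltf, which encode a resistin-like protein and the granule proteins cathelicidin and lactoferrin, fell by 4.87, 4.70 and 3.06 on the log2 scale (adjusted p = 0.00381, 0.00462 and 0.0004), and Retnlg and Camp had -3.57 and -3.37 without CTR replicate 1. Of the alveolar and GM-CSF macrophage markers, 13 of 16 were tested, and 2 rose and 6 fell (median -0.41), or 2 and 7 without CTR replicate 1 (median -0.47), with sums of 2893 to 4331 CPM in CTR, 3224 to 3487 in NE and 3395 to 3521 in TDE that overlapped. Pparg, which directs the alveolar macrophage program, fell from 13.1, 15.3 and 13.6 CPM to 4.32, 3.38 and 4.28 CPM (log2 fold change -1.81, SE 0.16, adjusted p = 0.000337). Spp1 and Fabp4 fell by 1.93 and 1.71 (adjusted p = 0.000367 and 0.0241), and Marco and Plet1 rose by 3.49 and 2.04 (adjusted p = 0.00338 and 0.00763). For Fabp4 the value without CTR replicate 1 was -1.06, and for Marco it was 4.35.

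The labelled cell type was checked against its own markers. Of 12 dendritic cell markers, 11 were tested and none was at 0 in all libraries, with a sum of 14660 CPM in CTR replicate 1, 4805 and 5934 in the other CTR libraries, 4580 to 5772 in NE and 2573 to 2743 in TDE. Against CTR 6 fell and none rose (median -1.22), and 9 fell without CTR replicate 1 (median -0.72), beside 9.34% and 18% of all tested genes. Against NE 3 fell, Dpp4, H2-Aa and Itgax. Among those that fell against CTR, Cd74, the MHC class II invariant chain, fell by 2.36 (adjusted p = 0.0165, -1.45 without CTR replicate 1), Ccr7 by 1.42 (adjusted p = 0.0131) and Dpp4 by 1.34 (adjusted p = 0.00674). Cd74 and Ccr7 were not called against NE. In the fit without CTR replicate 1, 9 of the 11 fell against NE, Cd74 and Ccr7 among them, beside 3289 of 15301 tested genes. The 12 general macrophage markers summed to 33460 to 51468 CPM in CTR, 33869 to 39578 in NE and 32968 to 34122 in TDE. Sums over different lists of genes do not measure the amounts of cells against each other. Against CTR, 1 macrophage marker rose and 2 fell (median -0.37, and 2 rose and 7 fell with a median of -0.39 without CTR replicate 1). Adgre1 rose by 2.56 (adjusted p = 0.0013), and C1qb fell by 1.95 (adjusted p = 0.0425). Without CTR replicate 1 the value for C1qb was -0.91.

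Of 9 monocyte markers, 3 rose (Spn, Cx3cr1 and Treml4, by 0.94, 0.85 and 0.50) and 2 fell (among them Ace, which fell by 1.42), with a list median of -0.15, or 4 and 4 without CTR replicate 1 (median -0.14), and sums of 1764 to 2339 CPM in CTR, 2216 to 2308 in NE and 2002 to 2046 in TDE. Of 10 lymphoid markers, 7 were tested and 5 fell (median -1.24), among them Cd8a, Cd79a and Ms4a1 by 4.02, 1.58 and 1.12, and of the 8 tested without CTR replicate 1, 1 rose and 6 fell (median -1.16). Their sum was 75.8 CPM in CTR replicate 1, 33.1 and 40.5 in the other CTR libraries, 31.0 to 38.6 in NE and 27.4 to 28.1 in TDE. Of 8 erythroid markers, 1 was tested and was not called, and the sum did not exceed 11.9 CPM, the value of CTR replicate 1. Over all lists, which were chosen with earlier results of these data known, 135 genes beside the 9 were tested. Of these, 19 rose and 55 fell in TDE against CTR, beside 7.57% and 9.34% of all tested genes. Against NE 20 rose and 43 fell, beside 6.73% and 7.21% of all tested genes, and 0 were called in NE against CTR. When CTR replicate 1 was left out, 30 of 136 rose and 75 fell against CTR, beside 16.4% and 18% of all tested genes. The same counts were found against NE in that fit, where 2934 of 15301 tested genes rose and 3289 fell. As the lists were not chosen blind to these data, nothing is read from these counts. Exons of Galc, Ltc4s, Mpo, Il3ra, Il5, Cish, Lyn, Pim1, Stat5a, Cebpa, Cd22, Plet1, Dpp4, Cx3cr1 and Ace overlap a gene on the opposite strand. Those of Spp1, Cd74, Csf2rb and Csf2rb2 overlap one on the same strand. Reads on all these genes may include those of the gene they overlap.

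The genes whose profile over the 9 libraries was most like that of Ear2 were taken by the root mean square difference of log2 CPM centred on each gene's mean. They were Mgl2, a macrophage and dendritic cell lectin (0.35), Klk1b11, a kallikrein (0.37), Apoe, which encodes apolipoprotein E (0.40), Ltf (0.45) and Slco2b1, an anion transporter (0.53). Mgl2 averaged 20.8 CPM in CTR, 17.7 in NE and 1.20 in TDE. Slco2b1 averaged 0.0369 CPM in TDE, which is below the floor. For Prg2 the nearest genes were Cebpe (0.20), Klra17 (0.21), Trem2, a lipid-sensing receptor of macrophages (0.21), Prg3 (0.22) and Matk, a kinase that inhibits Src family members (0.24). Trem2 averaged 571 CPM in CTR, 332 in NE and 88.0 in TDE. All 5 genes near Prg2 were closer to it than any gene was to Ear2, and Cebpe and Prg3 share with Prg2 the high value of CTR replicate 1. Klra17, Trem2 and Matk also averaged more in CTR (13.1, 571 and 121 CPM) than in NE (8.84, 332 and 57.7 CPM). The profiles include CTR replicate 1, and the nearest genes were not taken without it.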

How the data were processed

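RNA sequencing of 9 BMDC libraries (3 each of CTR, NE and TDE) was examined in the deposited gene count table. The authors deposited estimated counts (expected counts, mostly whole numbers, not normalized) for 57238 entries, with a gene length and a mean per group, and the authors' means were not used. The submitters' processing notes name TopHat2 2.1.1, DESeq2 1.24.0 and R 3.3.1. The counting program, build, annotation and use of strand are not given in the sources used here, so that reads of genes that overlap on opposite strands cannot be separated. All 55536 Ensembl identifiers of the table were found in a GENCODE annotation of GRCm38, which was used for positions and transcripts, and upstream sequences came from RefSeq (GRCm38.p6).

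Estimated counts were rounded to whole numbers, filtered with filterByExpr (15028 genes kept), normalized with TMM and fitted over all 9 libraries with 1 mean per group by edgeR 4.0.16 in R 4.3.3. Groups were compared by the quasi-likelihood F test with Benjamini-Hochberg adjustment over all tested genes and a threshold of 0.05. Alternatives were DESeq2 1.42.0, limma 3.58.1 (voom with sample quality weights), other scaling factors, other filters, a replicate block, the 6 libraries of a pair, and leaving out each library. Python 3.11.15, pandas 2.3.3 and Biopython 1.88 were used for tables and sequences.

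The 9 genes and the 16 lists of other genes (8 of them cell type markers) were chosen with earlier results of these data known. Named were all 9 genes, RNase A family genes with at least 10 reads over all libraries, up to 3 called genes per list and direction whose mean reached 1 CPM and whose groups did not overlap, a fixed set of receptors and factors, and the 5 profiles nearest to Ear2 and Prg2 (log2 of CPM + 0.5). Rnase12, Siglech, Cebpa, Ltc4s, Lcn2 and the other called genes given by name alone were added to report the full count of a list. The floor of 3 reads per library covers counting error only. Some genes of the lists are counted but not reported by name here.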

Additional observations from a re-analysis of the deposited data

How the results depend on the processing

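For TDE against CTR, all 134 log2 fold changes of the 8 tested eosinophil genes under the alternatives were below 0, and 130 of them moved by less than 1 SE, the others being Prg2 and Prg3 without CTR replicate 1 and by limma voom (-2.35 and -2.28). For TDE against NE, all 135 were below 0 and moved by less than 1 SE. The genes were chosen on low TDE values and every alternative uses the same libraries. The shared sign is therefore no independent support and describes only how far the values depend on the processing. For NE against CTR, 117 were below 0 and 18 above. Il5ra did not pass the filter of 10 counts in every library, nor the one for the 6 TDE and CTR libraries alone. The number of other listed genes called was 74 for TDE against CTR, 113 by limma voom, 48 with only the 6 libraries of the pair and 46 to 105 when 1 library was left out. For TDE against NE it was 63, with 117 by limma voom, 101 with 6 libraries and 37 to 105 when 1 library was left out. The highest value of both ranges was that without CTR replicate 1, and the lowest values, 46 to 48 and 37 to 39, were those without a TDE library. For NE against CTR it was 0 throughout. Over the whole table, 2541 genes were called for TDE against CTR, with 4018 by DESeq2, 7886 by limma voom, 1152 with 6 libraries and 1103 to 5263 when 1 library was left out, and 2095 for TDE against NE, with 8311 by limma voom, 6072 with 6 libraries and 970 to 6223 when 1 library was left out. The values for TDE against CTR were 5263 without CTR replicate 1, 3944 without CTR replicate 3 and 1103 to 1177 without a TDE library, and those for TDE against NE were 6223 without CTR replicate 1, 1080 to 1274 without an NE library and 970 to 1036 without a TDE library. The cause was not tested. With library totals alone, the median of all genes for NE against CTR was 0.12, against 0.00 with TMM.

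Libraries with the same number did not deviate together (correlations of -0.69 to 0.28 between groups), and the numbers were not taken as pairs. The deviations were taken from the mean of 3 libraries, and those in CTR depend largely on replicate 1. A pairing that involves CTR can therefore not be excluded by these correlations. With a replicate block, 50 listed genes were called for TDE against CTR and 44 for TDE against NE, and 1285 and 1175 over the whole table. Low counts limit Il5ra (2 to 5 reads per TDE library) and Ear10, and shared sequence limits Ear1 and Ear2.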
